A study of Mus musculus with 7 samples.

Results

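The genes described here are 55 nuclear genes for subunits of complexes I to IV of the mitochondrial respiratory chain, of 13562 genes named in the deposited table. They were taken from a list of subunit names, and each was read from the array row whose platform annotation gave it as the only gene symbol, or from the row with the highest mean where a gene had several rows. All 55 were found. The list held 32 subunits of complex I, 4 of complex II, 7 of complex III and 12 of complex IV.

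The respiratory chain sits in the inner mitochondrial membrane and passes electrons from NADH and succinate to oxygen. Complex I takes electrons from NADH, complex II takes them from succinate, complex III hands them to cytochrome c, and complex IV, cytochrome c oxidase, reduces oxygen. Complexes I, III and IV pump protons, and ATP synthase uses the resulting gradient. Some subunits are encoded by mitochondrial DNA, and the others are made from nuclear genes and imported. The subunits described here are a listed part of the nuclear ones, not all of them. Pluripotent cells are known for relying heavily on glycolysis and for changing their mitochondrial metabolism when they differentiate or are reprogrammed.

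Gene expression was measured on 7 mouse Affymetrix arrays, 1 for each condition. The Nanog KO sample was a culture of fibroblasts derived from Nanog-/- embryonic stem cells and carrying a lentivirus with the factors Oct4, Sox2, Klf4 and Myc (OSKM) for 8 days. Utx is a demethylase of histone H3 lysine 27 encoded by the X-linked gene Kdm6a, and V6.5 embryonic stem cells (ESCs) were hybridised as UTX-/Y (KO) and as UTX+/Y (WT). Mouse embryonic fibroblasts (MEFs) named V19-OSKM were profiled for both genotypes with doxycycline (DOX), which induces OSKM, and without it. The MEFs without DOX thus belong to the same V19-OSKM cells. The labels list a 2i/LIF stem cell medium for every sample, and give neither the length of DOX exposure nor the age of the embryos.

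Values are the authors' log2 values, and differences are on that log2 scale. No condition was repeated, so a difference between 2 arrays carries no replicate check and no p-value, and precision is limited by having 1 array each. Fewer cells of a type and less RNA per cell cannot be told apart in such bulk samples. A floor was set at the 40th percentile of all values, 7.34. A gene was called different between 2 arrays at 1.5-fold or more with the higher value above the floor. The median of the Nanog KO array was 8.55, against 7.68 to 7.84 on the 6 Utx arrays, so its values are given after a downward shift by 0.76.

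The label checks did not all follow the labels. Kdm6a read 7.97 in KO ESCs and 9.12 in WT ESCs, and it was also lower in both MEF libraries labelled KO (7.57 against 8.93 with DOX, and 6.32 against 8.22 without DOX). With DOX, Pou5f1, the gene of Oct4, read 5.12 in the library labelled KO and 12.59 in WT MEFs. Without DOX it read 11.26 in the library labelled KO and 8.19 in WT MEFs. The DOX labels of the KO MEF libraries are therefore in doubt, and both are named here only as labelled. Nanog read 5.80 on the Nanog KO array, below the floor, as in WT MEFs with DOX at 5.48, so that it checked nothing. ESC markers had a median of 11.22 in KO ESCs and 11.13 in WT ESCs, against 4.90 to 6.06 on the 5 fibroblast arrays. Fibroblast markers had a median of 11.28 or more on 4 fibroblast arrays, but of 7.75 in WT MEFs with DOX, where markers of epithelial cells had their highest median, 9.97. Markers of macrophages had a median of 9.62 in WT MEFs without DOX and 8.50 on the Nanog KO array, against 5.04 to 7.20 on the other 5.

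The subunits varied little. Over the 6 Utx arrays the distance between a subunit's highest and lowest value had a median of 0.63, against 1.27 over the 10673 genes above the floor on at least 1 of these arrays. It exceeded 1 for 9 subunits of 55, while 63.0% of those genes exceeded 1. It ran from 0.12 for Ndufc2, an accessory subunit of complex I, to 2.74 for Cox4i2, an isoform of a complex IV subunit. By complex, the median distance was 0.60 in complex I, 0.48 in complex II, 0.80 in complex III and 0.68 in complex IV. Of the 55 subunits, 48 lay above the floor on all 7 arrays and 1, Ndufb2, on none.

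**Figure D1:**
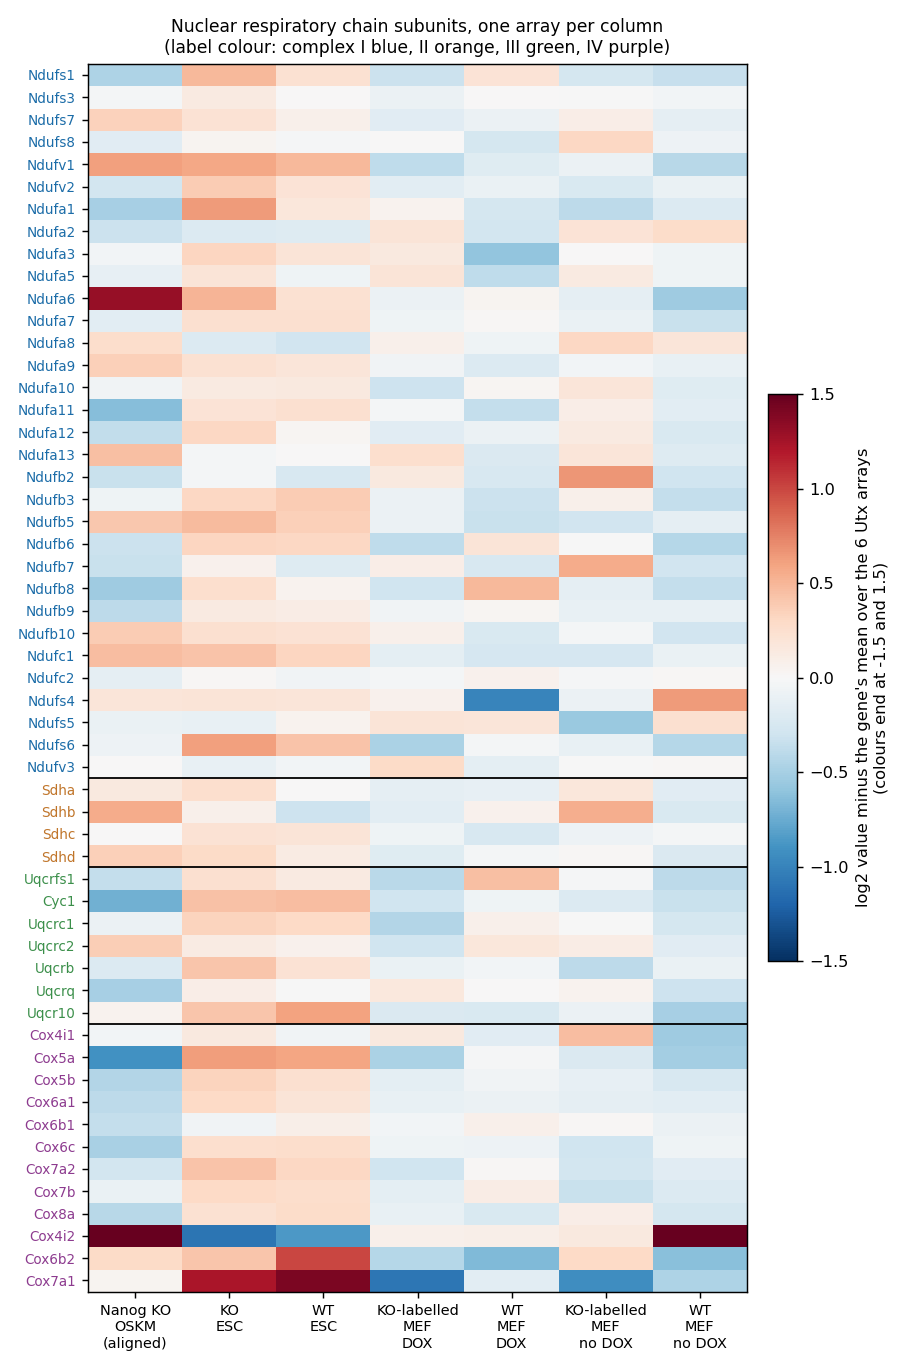
Each row is 1 of the 55 subunits and each column 1 array. Colour gives the log2 value minus the gene's mean over the 6 Utx arrays, with the Nanog KO array shifted by 0.76, and colours end at -1.5 and 1.5. Most rows stay pale, and Cox4i2, Cox6b2 and Cox7a1 in the bottom rows hold much of the strong colour.

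The widest differences lay in 3 complex IV genes with tissue-restricted expression, each a paralogue of a widely expressed subunit. Cox4i2 is a paralogue of Cox4i1 known from lung and from low oxygen, Cox6b2 is known from testis, and Cox7a1 from heart and skeletal muscle. The upstream 250 bases of Cox7a1 and Cox6b2 and of their widely expressed paralogues are shown because the isoforms carry the largest ESC and MEF differences and these stretches differ in CpG content. They are RefSeq sequences of GRCm38.p6, each given 5′ to 3′ on the gene's strand and ending just before the start that the promoter table uses, with CpG dinucleotides in capitals. For Cox7a1, Cox6b2 and Cox6b1 that start is the annotated gene start. For Cox7a2 it lies 11569 bases inside the annotated gene, so the Cox7a2 sequence stands for the table's start alone.
Cox7a1 (chr7:30183921-30184170, plus strand): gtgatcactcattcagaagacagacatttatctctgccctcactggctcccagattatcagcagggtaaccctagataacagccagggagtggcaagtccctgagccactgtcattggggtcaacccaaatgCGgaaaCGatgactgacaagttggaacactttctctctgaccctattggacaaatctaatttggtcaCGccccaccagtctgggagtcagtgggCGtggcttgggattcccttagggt
Cox7a2 (chr9:79759854-79760103, minus strand): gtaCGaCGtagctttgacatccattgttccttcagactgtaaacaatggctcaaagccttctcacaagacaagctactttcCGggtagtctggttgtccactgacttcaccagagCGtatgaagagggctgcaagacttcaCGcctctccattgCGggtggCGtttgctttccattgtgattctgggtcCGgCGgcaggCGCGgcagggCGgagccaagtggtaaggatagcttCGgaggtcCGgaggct
Cox6b2 (chr7:4753095-4753344, minus strand): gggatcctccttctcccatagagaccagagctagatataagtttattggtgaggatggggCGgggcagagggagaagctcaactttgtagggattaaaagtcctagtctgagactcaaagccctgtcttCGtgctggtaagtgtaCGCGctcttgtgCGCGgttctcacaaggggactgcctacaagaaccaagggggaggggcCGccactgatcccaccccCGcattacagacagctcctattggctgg
Cox6b1 (chr7:30626115-30626364, minus strand): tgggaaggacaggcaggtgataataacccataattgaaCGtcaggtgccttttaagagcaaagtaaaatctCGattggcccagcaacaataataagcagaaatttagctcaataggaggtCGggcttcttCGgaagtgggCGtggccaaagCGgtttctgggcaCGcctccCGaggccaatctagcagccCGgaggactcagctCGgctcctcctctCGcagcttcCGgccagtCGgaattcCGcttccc
The Cox7a1 sequence holds 4 CpG dinucleotides and the Cox7a2 sequence 14. The ratio of observed to expected CpG is 0.24 for Cox7a1 and, at its internal start, 0.75 for Cox7a2. The Cox6b2 sequence holds 8 CpG dinucleotides with a ratio of 0.43, and the Cox6b1 sequence 14 with a ratio of 0.77. The table held promoters for 44 of the 55 subunits, 7 of them at a start away from the annotated gene start, whose median ratio was 0.75, against 0.38 over its 27025 genes. These are properties of the sequence, and no methylation was measured here.

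Cox7a1 read 9.08 in KO ESCs and 9.26 in WT ESCs. With DOX it read 6.77 in the library labelled KO and 7.70 in WT MEFs, and without DOX 6.92 in the library labelled KO and 7.40 in WT MEFs. Both ESC arrays stood at least 1.39 above every MEF array, and both MEF libraries labelled KO lay below the floor. The Nanog KO array read 7.89. Cox7a2, its widely expressed paralogue, read 10.77 and 10.65 in KO and WT ESCs, against 10.04 to 10.37 on the 4 MEF arrays and 10.07 on the Nanog KO array. Both paralogues were thus higher in ESCs, Cox7a1 by 1.98 and Cox7a2 by 0.55 between the ESC and MEF means.

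Cox6b2 read 9.70 in KO ESCs and 10.29 in WT ESCs. With DOX it read 8.85 in the library labelled KO and 8.61 in WT MEFs, and without DOX 9.57 in the library labelled KO and 8.65 in WT MEFs. The ESC arrays stood above the MEF arrays by as little as 0.12, because of the library labelled KO without DOX. The Nanog KO array also read 9.57. Cox6b1 kept within 11.35 to 11.53 on the 6 Utx arrays and read 11.09 on the Nanog KO array.

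Cox4i2 ran the other way. It read 6.55 in KO ESCs and 6.78 in WT ESCs, both below the floor. With DOX it read 7.71 in the library labelled KO and 7.73 in WT MEFs, without DOX 7.78 in the library labelled KO and 9.29 in WT MEFs, and on the Nanog KO array 9.52. WT MEFs without DOX and the Nanog KO array stood apart, more than 1.5 above the other 3 fibroblast arrays, and they were also the 2 arrays with the highest macrophage marker medians. The part of macrophage RNA in the Cox4i2 values was not tested. Cox4i1 had no such split: it read 10.82 on the Nanog KO array, 11.00 and 10.79 in KO and WT ESCs, and 10.32 to 11.31 in MEFs. Its lowest value was in WT MEFs without DOX, where Cox4i2 was highest among the MEFs.

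**Figure D2:**
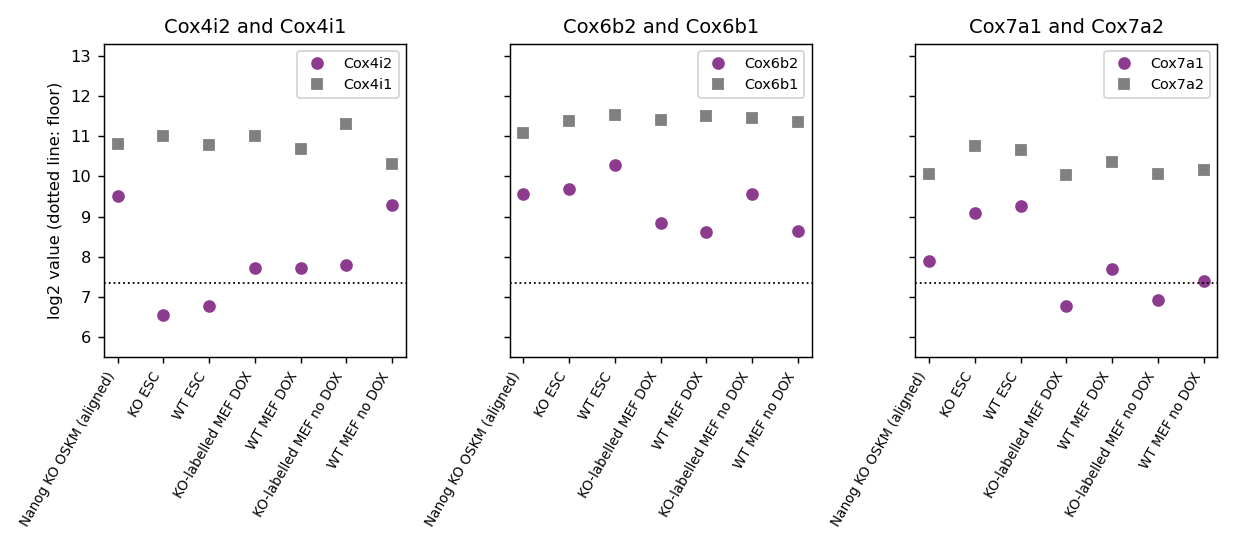
The log2 value on each of the 7 arrays (1 point per array) is plotted for each complex IV isoform (purple circles) and its widely expressed paralogue (grey squares), with the floor of 7.34 as a dotted line. Cox4i2 is low in ESCs and Cox7a1 low in MEFs. Values of different genes come from different probes and are to be compared across arrays only.

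WT ESCs had higher levels of most subunits than WT MEFs without DOX, by small amounts. The median difference over the 55 subunits was 0.32, against 0.03 over all genes, and 46 subunits were higher and 9 lower in ESCs. Of 53 subunits above the floor, 10 were called higher, while 25.2% of the 9673 genes above the floor were called higher. A single subunit, Cox4i2, was called lower, against 29.4% of genes. The share called higher was therefore below that of all genes, and the subunits differed from other genes in their median and in the few lower calls. The median was 0.28 in complex I, 0.20 in complex II, 0.52 in complex III and 0.48 in complex IV. Macrophage markers had medians of 5.13 in WT ESCs and 9.62 in WT MEFs without DOX. In the same order, fibroblast markers had 8.94 and 11.85, and epithelial markers 7.80 and 5.56. Their part in the subunit differences was not tested.

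Among the core subunits, Ndufv1, which binds NADH in complex I, read 10.37 in WT ESCs and 9.46 in WT MEFs without DOX, a difference of 0.91. Cyc1, cytochrome c1 of complex III, read 11.06 and 10.25, a difference of 0.80. Ndufs1, Ndufs3, Ndufs7, Ndufs8 and Ndufv2, the other core subunits of complex I listed, differed by 0.57, 0.05, 0.22, 0.05 and 0.30 in that order. Uqcrfs1, the Rieske iron-sulphur protein of complex III, differed by 0.52, and the succinate dehydrogenase subunits Sdha and Sdhb differed by 0.18 and -0.09. None of these 8 reached 1.5-fold.

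Of the other subunits, Cox7a1 differed by 1.87, Cox6b2 by 1.64, and Cox5a, a widely expressed complex IV subunit, and Uqcr10, a small complex III subunit, by 1.10 each. Cox5a read 11.17 in WT ESCs and 10.07 in WT MEFs without DOX. Uqcr10 read 9.90 and 8.80. The accessory complex I subunits Ndufs6, Ndufa6, Ndufb3 and Ndufb6 differed by 0.85, 0.76, 0.74 and 0.73. Cox4i2 was at least 3.86-fold lower in ESCs, with the ESC side set to the floor. The core proteins of complex III, Uqcrc1 and Uqcrc2, differed by 0.56 and 0.23.

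The 2 ESC arrays and the 4 MEF arrays of the Utx series were then set side by side for each subunit. For 31 of 53 subunits above the floor, both ESC arrays exceeded all 4 MEF arrays, against 30.4% of 10673 genes. For 2 subunits, Cox4i2 and Ndufa8, both ESC arrays lay below all 4, against 25.1% of genes, and 20 overlapped. In complex IV, 9 of 12 stood higher in ESCs, among them 7 of the 9 widely expressed subunits. In complex I it was 16 of 30, in complex II 2 of 4, and in complex III 4 of 7. The gap between the groups was 0.61 for Cox5a, 0.58 for Ndufv1 and 0.50 for both Cyc1 and Uqcr10, but 0.01 for Ndufs3 and 0.03 for Ndufs1. Ndufa8, an accessory subunit of complex I, read 10.31 and 10.23 in KO and WT ESCs, against 10.45 to 10.83 in MEFs. Without the 2 MEF libraries labelled KO, 39 subunits stood higher and 4 lower in ESCs, against 35.6% and 31.7% of genes. With quantile normalization the counts were 26 and 2, against 27.7% and 27.9% of genes.

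**Figure D3:**
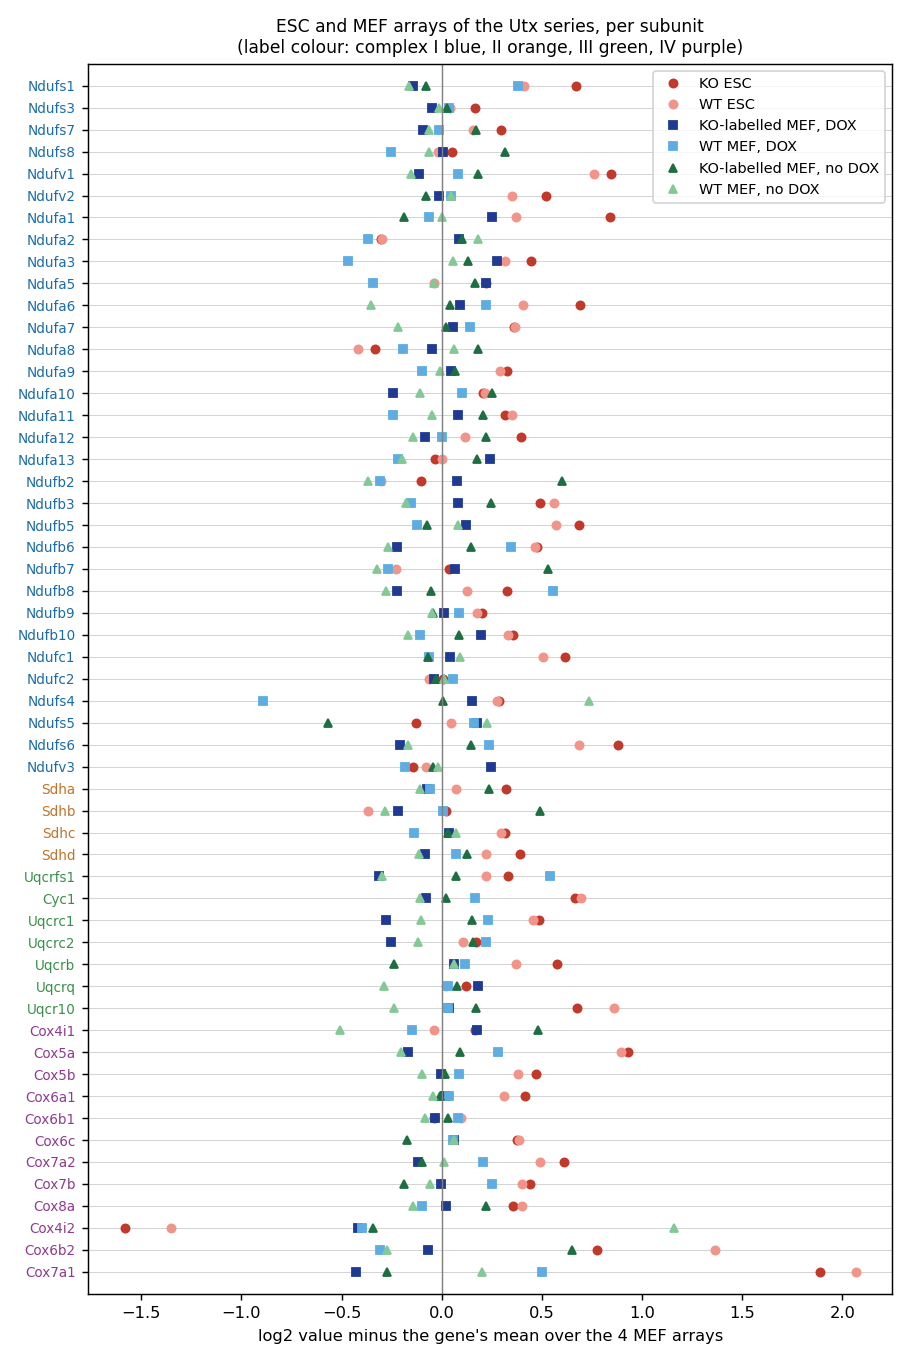
Each point is 1 array, placed by its log2 value minus the gene's mean over the 4 MEF arrays, for each of the 55 subunits (rows). The ESC arrays (red circles) lie to the right of all MEF arrays (squares and triangles) for 31 subunits above the floor, and to the left for Cox4i2 and Ndufa8.

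A model with cell context and genotype as additive terms was fitted with limma to the 6 Utx arrays. Its residual, with 2 degrees of freedom, comes from genotype effects that differ by context, and the p-values do not measure the spread between cultures. For ESCs minus MEFs without DOX, 0 of 53 subunits passed an adjusted p of 0.05 (limma, Benjamini-Hochberg), as did 0 of 10673 genes (0%). At an unadjusted p under 0.05 there were 13 subunits, 11 higher and 2 lower, against 29.1% of genes. Cox7a1 had the lowest adjusted p of the subunits, 0.0802 in limma, with a difference of 2.01 and a standard error of 0.32, and it was higher in ESCs in both genotypes. The 2 doubted libraries were also left out in turn, which leaves 1 residual degree of freedom and 1 context with a single array. These fits are given by effect size only, since their calls depended on which library was left out. The median difference of the subunits was 0.30 without the library labelled KO with DOX. It was 0.38 without the library labelled KO without DOX.

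Genes around the chain are given from lists of the same pathway, for WT ESCs minus WT MEFs without DOX, where 25.2% of all genes were called higher and 29.4% lower. ATP synthase had a median difference of 0.32, with 1 of 18 genes called higher, Atp5l at 0.67, and 0 lower. The mitochondrial ribosome, which translates the subunits encoded in the organelle, had a median of 0.36, with 24 of 75 called higher, not far from the share of all genes, and 2 lower. Assembly factors had 0.25, with 5 of 31 higher, such as Coa7 at 1.25, and 2 lower, Cox19 at -0.79 and Ndufaf4 at -0.67. Enzymes of the tricarboxylic acid cycle and its entry had 0.25, with 4 of 16 higher, also near that share, and 0 lower. Regulators of mitochondrial biogenesis had 0.57, with 7 of 14 higher, led by Esrrb, an orphan nuclear receptor of the pluripotency network at 11.15 in WT ESCs and 4.81 in WT MEFs without DOX, and 2 lower, Myc at -1.60 and Tfb2m at -0.72. A list joining genes of the response to low oxygen with genes of glycolysis had a median of -1.11, with 10 of 15 called lower and 3 higher. Its glycolysis genes did not share a direction, since Ldhb differed by 1.90, Hk2 by 0.84 and Ldha by -1.11. Bnip3, a mitophagy receptor induced by low oxygen, read 7.54 in WT ESCs and 10.73 in WT MEFs without DOX. Ndufa4l2, a paralogue of Ndufa4 also induced by low oxygen, read 6.22 and 10.56, and was at least 9.32-fold lower in ESCs, while Ndufa4 differed by 0.78. Both are in a list of other chain genes, with Ndufb11, Uqcrh and Cycs, that was kept apart from the subunits above. It had a median of 0.20 over 11 measured genes, with 1 of 8 above the floor called higher, Ndufa4, and 1 lower, Ndufa4l2. Both ESC arrays exceeded all 4 MEF arrays for 2 of its 9 genes above the floor on the Utx arrays. They lay below all 4 for 2, and 5 overlapped, against 31 higher and 2 lower of 53 subunits.

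Few subunits differed with DOX in WT MEFs. The median difference with DOX minus without was 0.06, against 0.00 over all genes, and 36 subunits were higher and 19 lower. Of 52 above the floor, 3 were called higher, against 19.5% of 9524 genes, and 2 lower, against 20.3%. In complex III all 7 subunits were higher with DOX, by a median of 0.32, of which 1 was called. WT MEFs with DOX differed from those without DOX also in cell markers, with medians of 9.97 against 5.56 for epithelial markers, 7.75 against 11.85 for fibroblast markers and 5.29 against 9.62 for macrophage markers. Their part in the differences was not tested.

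Uqcrfs1 read 8.53 in WT MEFs with DOX and 7.69 without, a difference of 0.84. Ndufb8, an accessory complex I subunit, read 9.87 and 9.03, also a difference of 0.84, and Ndufb6 differed by 0.61. Ndufs4, a late-assembled subunit of complex I whose loss is known to cause Leigh syndrome in humans, read 10.03 with DOX and 11.66 without, a difference of -1.63. Cox4i2 differed by -1.56. Ndufs4 was lowest of all 7 arrays in WT MEFs with DOX and highest in WT MEFs without DOX, with the other 5 between 10.93 and 11.21. In limma's additive fit 0 subunits and 0% of genes passed an adjusted p of 0.05 for DOX, and at an unadjusted p under 0.05 there were 0 subunits, against 0.937% of genes. Without the library labelled KO with DOX, 1 of 53 subunits passed, Ndufs4, with a difference of -1.44 and a limma adjusted p of 0.0436, against 8.67% of genes. In this reduced fit WT MEFs with DOX are the only array with DOX. That array adds nothing to the residual and is assumed to vary like the ESCs and the MEFs without DOX. The fit takes the DOX labels of the KO MEF libraries as given.

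Between the libraries labelled KO, with DOX minus without DOX, the median was -0.07, against 0.02 over all genes, with 20 subunits higher and 35 lower. Of 52 above the floor, 1 was called higher, against 18.6% of 9119 genes, and 2 lower, against 7.95%. Ndufs5, an accessory complex I subunit, read 8.13 in the library labelled KO with DOX and 7.39 in that labelled KO without DOX. Cox6b2 differed by -0.72, and Sdhb, the iron-sulphur subunit of complex II, by -0.71. Uqcrfs1 differed by -0.39, Ndufb8 by -0.17 and Ndufs4 by 0.15. With array medians aligned the median over the subunits was -0.19, and that of all genes moved to -0.09.

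Utx KO ESCs and WT ESCs read close to each other for most subunits. The median difference was 0.07, against 0.03 over all genes, with 39 subunits higher and 16 lower. Of 52 above the floor, 0 were called higher, against 2.74% of 8598 genes, and 1 lower, against 6.65%. The called subunit was Cox6b2, at -0.59. The core subunits of complex I were higher in 6 of 6 cases, by a median of 0.13, and the 4 complex II subunits in 4 of 4, by 0.21. The ESC libraries differed more in other genes: fibroblast markers above the floor had a median difference of -2.46, with 7 of 8 called lower, and epithelial markers one of -1.01, with 3 of 6 called lower. Their part in the subunit differences was not tested.

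The library labelled KO without DOX stood above WT MEFs without DOX by a median of 0.22 over the subunits, against 0.01 over all genes. There were 39 subunits higher and 16 lower. Of 53 above the floor, 4 were called higher, against 12.8% of 9253 genes, and 3 lower, against 22.0%. Cox4i1 read 11.31 and 10.32, Sdhb 10.06 and 9.29, and Ndufb7, an accessory complex I subunit, 9.21 and 8.36, each with the library labelled KO first. Cox6b2 differed by 0.92. The subunits called lower were Cox4i2, at 7.78 in the library labelled KO and 9.29 in WT MEFs, Ndufs5 at -0.80 and Ndufs4 at -0.73. Marker medians differed too, at 6.31 in the library labelled KO and 9.62 in WT MEFs for macrophages, and at 11.28 and 11.85 for fibroblasts, and their part was not tested. The median over the subunits was 0.36 with array medians aligned, which moved the median of all genes to 0.14.

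With DOX, the library labelled KO and WT MEFs differed by a median of -0.02, against -0.01 over all genes, with 25 subunits higher and 30 lower. Of 52 above the floor, 2 were called higher, against 22.9% of 9572 genes, and 3 lower, against 20.1%. Ndufs4 read 11.08 in the library labelled KO with DOX and 10.03 in WT MEFs with DOX, and Ndufa3, an accessory complex I subunit, differed by 0.74. Uqcrfs1 read 7.67 and 8.53, a difference of -0.86, and Ndufb8 read 9.09 and 9.87, a difference of -0.78. Cox7a1 differed by -0.93, or at least 1.28-fold lower with the library labelled KO set to the floor. Fibroblast markers had a median of 11.63 in the library labelled KO and 7.75 in WT MEFs, and epithelial markers of 5.19 and 9.97, and their part was not tested. Ndufs4, Uqcrfs1 and Ndufb8 are also among the subunits that stood out in WT MEFs with DOX against WT MEFs without DOX, and both comparisons share the array of WT MEFs with DOX.

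Over the 3 pairs of KO and WT libraries as labelled, 8 of 53 subunits above the floor were higher in KO in every pair, against 12.2% of 10673 genes. Cox4i2 and Cox7a1 were lower in every pair, 2 of 53, against 9.34% of genes. For Cox4i2 this rests on the pair without DOX. Its KO and WT values were 6.55 and 6.78 in ESCs, both below the floor, and 7.71 and 7.73 with DOX. In limma's additive fit 0 of 53 subunits and 0% of genes passed an adjusted p of 0.05 for genotype. At an unadjusted p under 0.05 there were 0 subunits, against 1.76% of genes.

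**Figure D4:**
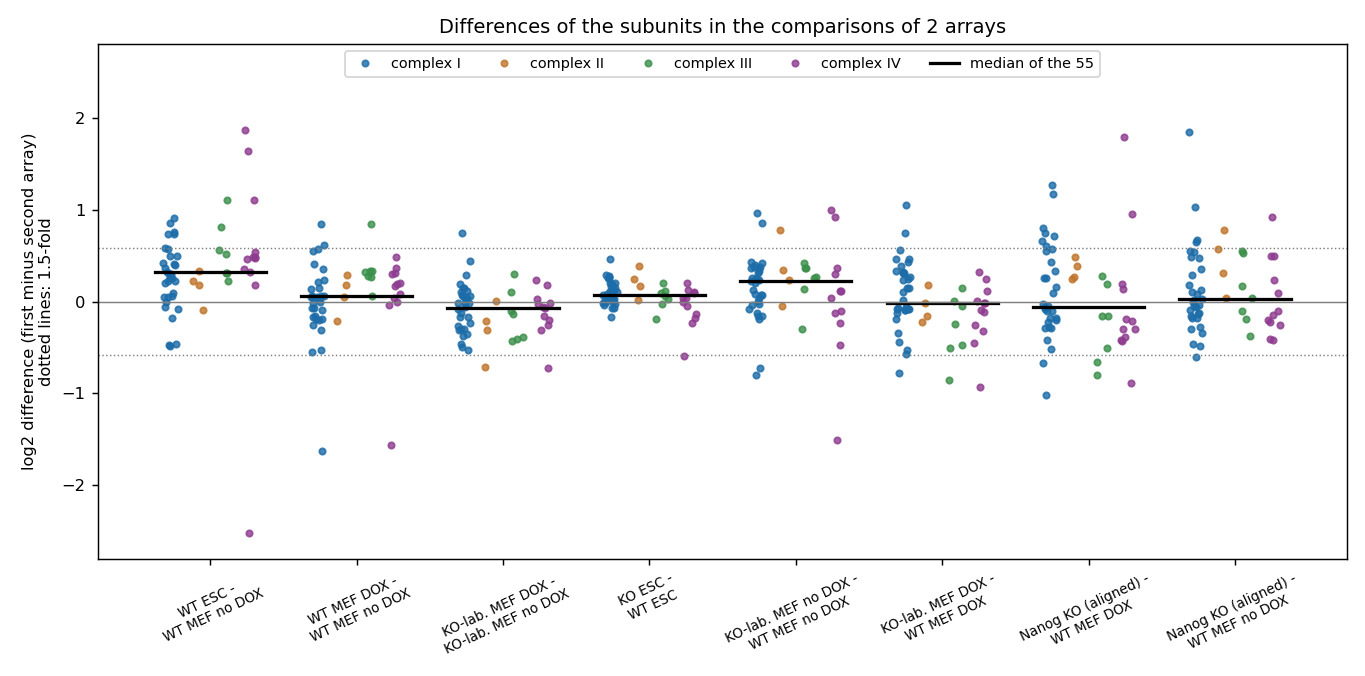
Each point is the log2 difference of 1 subunit between 2 arrays, first minus second as written under the axis, by complex. Black bars are the median of the 55, and dotted lines mark 1.5-fold. The median is 0.32 for WT ESCs minus WT MEFs without DOX and lies between -0.07 and 0.22 in the other 7 comparisons, which partly share arrays.

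The Nanog KO fibroblasts, after the shift of their array, had a median difference of -0.05 from WT MEFs with DOX, against -0.01 over all genes. Of 53 subunits above the floor, 9 were called higher, against 21.4% of 9555 genes, and 5 lower, against 25.1%. Against WT MEFs without DOX the median was 0.02, with -0.03 over all genes. Of 54 above the floor, 6 were called higher, against 18.0% of 9445 genes, and 1 lower, against 23.6%. Both comparisons use the Nanog KO array. No array of like fibroblasts with intact Nanog is among the 7. Loss of Nanog, the origin of the cells and the lentivirus therefore cannot be told apart. Fibroblast markers had medians of 11.63 on the Nanog KO array and 7.75 in WT MEFs with DOX. In that order, macrophage markers had 8.50 and 5.29, and epithelial markers 6.49 and 9.97. Their part in the differences was not tested. Without the shift the medians were 0.71 and 0.79, and those of all genes 0.76 and 0.74.

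Ndufa6, an accessory complex I subunit, stood apart on the Nanog KO array at 10.02, against 8.18 to 8.76 in MEFs and 9.23 and 8.94 in KO and WT ESCs. Ndufv1 read 10.49 on the Nanog KO array, above all 4 MEF arrays and near the ESCs. Sdhb read 10.07, higher than WT MEFs without DOX by 0.78. Cox5a read 9.66 and Cyc1 9.88 on the Nanog KO array, both below all 6 Utx arrays. Ndufs1, a core subunit of complex I with iron-sulphur clusters, read 8.86, below all 6 as well. The widely expressed complex IV subunits were lower than in WT MEFs with DOX in 8 of 9 cases, with a median of -0.30, and lower than in WT MEFs without DOX in 7 of 9, with a median of -0.20. The 4 complex II subunits were higher in both, by medians of 0.33 and 0.44. Cycs, cytochrome c, which carries electrons between complexes III and IV, read 9.97 on the Nanog KO array, against 11.33 to 11.69 on the other 6. Without the shift the differences of Cyc1 and Ndufs1 from WT MEFs with DOX were 0.11 and 0.09 in place of -0.65 and -0.67. Their direction, and that of all small differences of this array, therefore rests on the shift.

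NRF1 and factors of the ETS family (GABP) are known to bind promoters of respiratory chain genes, so the 250 bases before each start were searched on both strands for their letters. NRF1 was searched as GCGCA, then any base, then GCGC, which 8 of 44 subunits held (18.2%), against 3.87% of all 27025 genes. The ETS letters CCGGAAG were in 6 subunits (13.6%), against 7.07% of all genes. The members with the NRF1 letters were Ndufa5, Ndufa8, Ndufa11, Ndufs5, Ndufs6, Sdha, Sdhd and Cox6a1. They did not all share a direction between ESCs and MEFs. Both ESC arrays exceeded all 4 MEF arrays for Ndufa11, Ndufs6, Sdhd and Cox6a1, and lay below all 4 for Ndufa8 alone. Ndufa5, Ndufs5 and Sdha overlapped. Of all 53 subunits above the floor, 31 stood higher and 2 lower. A match is a description of the sequence, and the median G+C content was 56.4% in the subunits and 52.0% in all genes. The NRF1 letters themselves hold CpG dinucleotides. The median ratio of observed to expected CpG was 0.75 in the subunits and 0.38 in all genes. The part of CpG content in the matches was not tested.

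Sdha, the flavoprotein of complex II, held the NRF1 letters 3 times, more often than any other subunit, and its sequence is shown for that reason. It is the RefSeq sequence of GRCm38.p6 at chr13:74350241-74350490, minus strand, 5′ to 3′, with the matches in capitals, starting 98, 55 and 10 bases before the gene's start.
Sdha: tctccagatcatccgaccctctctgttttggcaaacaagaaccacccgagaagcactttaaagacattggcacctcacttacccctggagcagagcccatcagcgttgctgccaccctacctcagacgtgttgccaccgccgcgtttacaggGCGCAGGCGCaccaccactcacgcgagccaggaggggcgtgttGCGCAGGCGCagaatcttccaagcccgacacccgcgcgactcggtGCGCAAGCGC
Sdha read 10.74 on the Nanog KO array, 10.85 in KO ESCs, 10.61 in WT ESCs and 10.43 to 10.77 in MEFs, a range of 0.43 over the 6 Utx arrays.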

How the data were processed

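Gene expression was measured in 7 mouse samples, grouped by the labels, with 1 array each. The values are log2 values deposited by the authors, who used RMA in Affymetrix Expression Console, per the submitters' processing notes. Software versions, the build and any joint normalization of the Nanog KO array with the others were not given in the sources used here. A kit for 3-prime arrays is named in the labels, although the identifiers belong to a whole-transcript array.

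The table held 21811 rows with 0 missing values. In the platform annotation 14894 rows had 1 gene symbol and 5992 rows had no entry, and the 925 with several symbols were not used. Where a gene had several rows (7 subunits), that with the highest mean was used. The 55 gene IDs and symbols matched RefSeq (GRCm38.p6). Array depth has no counterpart here, and 1 array per condition limits the precision.

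Members, gene lists, thresholds and markers were chosen with earlier results of these data known. In each comparison of 2 arrays the 5 subunits with the largest difference in each direction above the floor could be named, and always the paralogue pairs and core subunits. From each other list at most 2 genes per direction were named, and Kdm6a, Nanog and Pou5f1 served as label checks. Other subunits named (such as Ndufc2, Ndufb2 and Ndufa8) were chosen after their values were seen.

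The 6 Utx arrays were fitted in R 4.3.3 with limma 3.58.1 (lmFit, eBayes with trend, Benjamini-Hochberg at 0.05) for 10673 genes, and was tested on simulated data. Python 3.11.15, numpy 2.4.6, pandas 2.3.3 and matplotlib 3.10.9 did the rest. Alternatives covered scaling, floor, threshold, rows of a gene, the variance prior, the block and the doubted libraries. Fits and counts without doubted libraries were added after the data were seen, as were bounds against the floor.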

Additional observations from a re-analysis of the deposited data

Results flagged for a closer look

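The genotype difference of 2 subunits ran in opposite directions in different contexts, and neither difference between contexts was tested, since each rests on 4 single arrays. Cox6b2 differed by 0.92 between the library labelled KO and WT MEFs without DOX, and by -0.59 between KO and WT ESCs. Ndufs4 differed by 1.05 between the library labelled KO and WT MEFs with DOX, and by -0.73 between the library labelled KO and WT MEFs without DOX. Both cases include MEF libraries whose DOX labels are in doubt.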

How the results depend on the processing

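Direction and counts were compared under each alternative. Using the mean over a gene's rows kept all 29 summary values, and the 80 differences of named subunits, within the limits set. That alternative could alter the values of only the 7 subunits with several rows, so it checks little. At a 2-fold threshold, counts called higher and lower are given for the subunits and then for all genes above the floor. For WT ESCs minus WT MEFs without DOX they were 4 and 1 of 53, against 1406 and 1912 of 9673 genes. DOX in WT MEFs gave 0 and 2 of 52, against 1134 and 1304 of 9524. DOX in the libraries labelled KO gave 0 and 0 of 52, against 621 and 267 of 9119. KO minus WT ESCs gave 0 and 0 of 52, against 56 and 273 of 8598. KO-labelled minus WT MEFs without DOX gave 0 and 1 of 53, against 466 and 882 of 9253. The same with DOX gave 1 and 0 of 52, against 1371 and 1159 of 9572. Nanog KO minus WT MEFs with DOX gave 3 and 1 of 53, against 1222 and 1321 of 9555. Nanog KO minus WT MEFs without DOX gave 2 and 0 of 54, against 864 and 1071 of 9445. For DOX in the libraries labelled KO, the median was -0.19 with aligned medians and with quantile normalization. Those of all genes were -0.09 and -0.07. The count of subunits called higher moved with the 60th percentile floor (8.48), and the count called lower with quantile normalization. For KO-labelled minus WT MEFs the median was 0.36 (aligned) and 0.33 (quantile) without DOX, and 0.01 (aligned) with DOX, which reversed its sign. Over all genes these medians were 0.14, 0.12 and 0.02. Without the shift, the Nanog KO array gave medians of 0.71 against WT MEFs with DOX and 0.79 against WT MEFs without DOX, with 33 and 39 subunits higher and 0 lower in both. Of the differences of named subunits, 7 then changed sign: Cyc1 at 0.11 and Ndufs1 at 0.09 against WT MEFs with DOX, and Ndufa2 at 0.16, Cox5a at 0.36, Cox6c at 0.34, Ndufa11 at 0.28 and Ndufs4 at 0.31 against WT MEFs without DOX. With quantile normalization the median against WT MEFs with DOX was 0.05, also reversed, with 3 lower, and against WT MEFs without DOX 10 were higher and 0 lower. Subunits lower in both ESC arrays than in MEFs numbered 4 without both libraries labelled KO, against 31.7% of genes. They numbered 4 without WT MEFs with DOX, against 33.9% of genes. Without the library labelled KO with DOX, limma's median difference of the subunits was 0.30 for ESCs minus MEFs without DOX and 0.10 for DOX. With all 6 Utx arrays these were 0.30 and 0.02. Without eBayes trend or without the filter, limma called 0 subunits for ESCs minus MEFs. It then called 25 genes higher and 1 lower without trend, and 32 higher and 1 lower without the filter. Without both libraries labelled KO no residual degree of freedom is left. The cause of these changes was not tested. The genotype fit pairs KO and WT arrays by context, and without that block it also called 0 subunits. The labels give no replicate numbers to pair by.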
